A study of Mus musculus with 6 samples.

Results

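The postsynaptic scaffold genes examined here were the 4 membrane-associated guanylate kinases of the PSD-95 family (Dlg1, Dlg2, Dlg3 and Dlg4), their 4 partners Dlgap1, Dlgap2, Dlgap3 and Dlgap4, and Lrrc7, which encodes densin. Members were all non-control probes whose gene symbol in the scanner files was 1 of these 9 symbols, which gave 17 of the 55681 different probes of the array, and 9 of its 34797 gene names. Of the 17 probes, 15 were well above background on all 6 arrays, at least 1 for each of the 9 genes. The other two, the second probes of Dlgap2 and Lrrc7, were not well above background on any array.

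At excitatory synapses the PSD-95 family forms the upper layer of the postsynaptic density. Its PDZ domains hold glutamate receptors, their auxiliary subunits and adhesion proteins, and its guanylate kinase-like domain binds the Dlgap proteins, which in turn bind the Shank and Homer scaffolds deeper in the density. Densin, a protein with leucine-rich repeats and a PDZ domain, binds CaM kinase II and also reaches Shank proteins. Several transcripts of this network, Dlg4 and Dlgap3 among them, are known to be transported into dendrites, and Dlg4 is a known binding target of FMRP, the protein made from Fmr1.

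Total RNA from brain synaptosomes, resealed nerve terminals that keep a piece of the postsynaptic side when brain tissue is homogenised, was hybridised to 6 one-colour Agilent mouse arrays. The samples were 3 of a knock-in group and 3 of a wild-type group. Sample names and the stated design call the first group knock-in, but its genotype entries say knock-out. The series title concerns FMR1 and FXTAS, the fragile X tremor and ataxia disorder. The labels do not describe the inserted allele, the strain, the age or the brain region, nor whether samples came from separate animals, so p-values rest on a spread that may be technical. The labels give an RNA integrity number of 10 for each sample and 0.2 µg of RNA for 5 of them, with 0.0 µg for knock-in replicate 1.

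Each probe is a 60-base sequence of its transcript, and the letters decide which transcript a spot reads. The first 30 bases of 3 probes are shown as examples: a Dlg1 probe whose difference turned its sign with slide as a block, the weaker Dlgap3 probe, and the Lrrc7 probe that gave no signal above background. They are written 5′ to 3′ in the sense of the transcript, in lower case throughout because no part is singled out.
Dlg1 probe 3: aaacattgtatccttgatgtgtctggaaat
Dlgap3 probe 2: tacgcaacttctcctgtctcagaaggtcca
Lrrc7 probe 2: catgactttaaacttgcagactaagtctaa
On build mm9 the 3 whole probes lie at chr16:31863262-31863321 on the plus strand, chr4:126912243-126912302 on the plus strand and chr3:157819753-157819812 on the minus strand, and they start at bases 2896, 2739 and 5239 of NM_007862, NM_198618 and NM_001081358. Their place relative to exons was not analysed here. The GC content of the 17 probes had a median of 38.3%, against 43.3% over all probes, and a lowest value of 26.7%. The polyadenylation signal AATAAA, searched in the sense of the probe only, stood in 2 of the 17, Dlgap1 probe 2 and Dlgap3 probe 1, and in 10.1% of all 55681 probes. No probe shared a run of more than 11 bases with a probe of another of the 9 genes.

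Signals differed in overall brightness between arrays. The 75th percentile of the processed signal was 883, 909 and 910 for the knock-in group and 823 for wild-type replicate 3, all on slide 1, and 578 and 580 on wild-type replicates 1 and 2, which were on slide 2. Levels are therefore given both as the deposited processed signal, on a linear scale with no common unit, and as a relative level, the log2 signal minus the log2 of the array's 75th percentile. Differences are knock-in minus wild type in relative level, with limma's standard error (SE); p-values are adjusted by the Benjamini-Hochberg method over the 29318 probes that were well above background on at least 3 arrays. Fmr1, used to check the labels, read 2.08, 2.24 and 2.27 in knock-in against 1.42, 1.33 and 1.37 in wild type. The difference was 0.82 (SE 0.1; limma, adjusted p = 0.326). Its signal was thus not lost in the group called knock-in, which does not settle the genotype entries. The 7 measured neuronal and synaptic transcripts (Snap25, Syn1, Syp, Slc17a7, Camk2a, Nrgn and Grin1) were well above background on all 6 arrays. But so were all 8 astrocyte, all 8 oligodendrocyte, all 8 microglial and all 6 endothelial markers. The samples thus held RNA of other cells, and fewer cells of a type cannot be told apart from less RNA per cell.

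No scaffold probe passed the threshold of 0.05 for limma's adjusted p: 0 of 15, where 0.00682% of all probes passed. The smallest adjusted p was 0.458. At an unadjusted p under 0.05 there was 1 higher probe, that of Lrrc7, and 0 lower ones, against backgrounds of 4.29% higher and 6.13% lower over all probes. Without wild-type replicate 3 it was 0 higher and 2 lower, Dlg1 probes 1 and 3, and the remaining wild-type arrays were then all on slide 2. It was 0 higher without knock-in replicate 1 or 2 or wild-type replicate 2, and with slide as a fixed block. With an intensity trend and robust variance in limma it was 1 higher and 1 lower, Dlg1 probe 1. The groups did not overlap for 3 of 15 probes (background 19.9%), with knock-in above for Dlgap2 and below for Dlg3 and Dlg1 probe 1. Differences ran from -0.34 to 0.56 with a median of -0.13, and 10 of 15 were below 0. Over all probes the median was -0.05 and 58.3% were below 0.

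**Figure D1:**
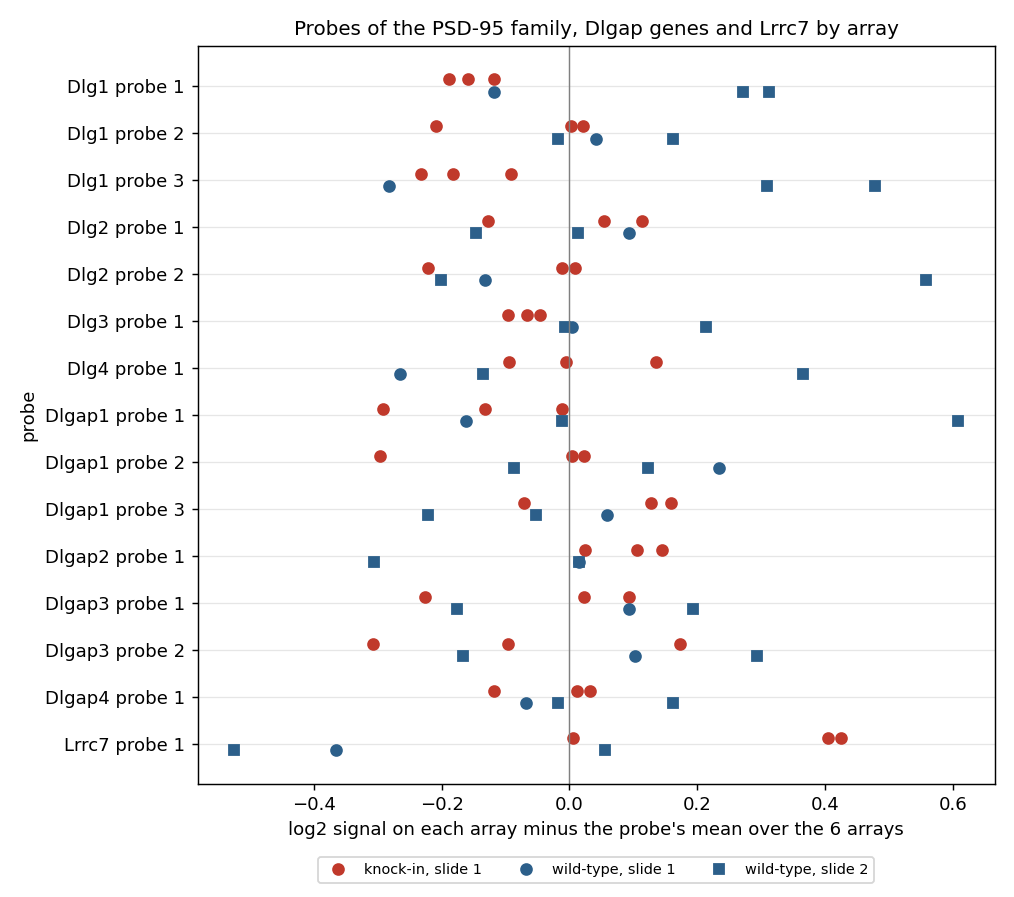
Relative log2 level of each of the 15 measured probes on each array, centred on the mean of the 6 arrays (x axis, log2), with knock-in arrays in red, wild-type arrays in blue, and slide 2 as squares. The 2 squares of Dlg1 probes 1 and 3 sit apart from the 4 arrays of slide 1. Lrrc7 is the probe whose knock-in points lie farthest to the right on average. Before centring, its knock-in relative levels were -0.01, 0.01 and -0.41.

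Dlg4 encodes PSD-95 itself, the most studied scaffold of the excitatory postsynaptic density, and it read alike in both groups on average. Its single probe, at chr11:69858757-69858816 on mm9, had processed signals of 21760, 24657 and 21074 in knock-in replicates 1 to 3 against 12954, 18409 and 16867 in wild-type replicates 1 to 3. In relative level these were 4.62, 4.76 and 4.53 against 4.49, 4.99 and 4.36. The groups overlapped, with wild-type replicate 2 the highest array and wild-type replicate 3 the lowest. The difference was 0.03 (SE 0.18), a ratio of 1.02 with a 95% interval of 0.75 to 1.39 (limma, adjusted p = 0.953). That interval bounds what 3 arrays a group can say of this gene. Against wild-type replicate 3, the only wild-type array on the slide of the knock-in arrays, the difference was 0.28 (adjusted p = 0.984 with slide as a block).

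Dlg3 encodes SAP102, a scaffold that is abundant early in development and carries NMDA receptors to young synapses, and its gene lies on the X chromosome. Its probe, at chrX:98013667-98013726, read 4.96, 4.93 and 4.98 in knock-in against 5.02, 5.24 and 5.03 in wild type. All 3 knock-in arrays were below all 3 wild-type arrays, by a margin of a few hundredths except for wild-type replicate 2. The difference was -0.14 (SE 0.11; limma, adjusted p = 0.603.) Without wild-type replicate 2 it was -0.07.

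Dlg1 encodes SAP97, a scaffold of AMPA receptor trafficking that also acts at epithelial junctions. Probe 1, at chr16:31871872-31871931, had processed signals of 3476, 3408 and 3495 in knock-in against 2990, 3091 and 3248 in wild type. Scaled to the brightness of the arrays, it read 1.98, 1.91 and 1.94 against 2.37, 2.41 and 1.98. Before scaling the knock-in arrays were thus the higher ones, and after scaling the lower ones. The relative levels of knock-in replicate 1 and wild-type replicate 3 were equal to the second decimal, while wild-type replicates 1 and 2, on slide 2, stood 0.41 above wild-type replicate 3 on average. The difference was -0.31 (SE 0.14; limma, adjusted p = 0.493), and -0.04 with slide as a block (adjusted p = 0.987).

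The other Dlg1 probes showed the same split by slide in part. Probe 3, the one beginning aaacattgtatccttgatgtgtctggaaat, read 0.18, 0.04 and 0.09 in knock-in against 0.75, 0.58 and -0.01 in wild type. Wild-type replicate 3 was the lowest array of the 6 and the pair on slide 2 the highest. Its difference of -0.34 (SE 0.21; limma, adjusted p = 0.546) became 0.12 with slide as a block. Probe 2, which reads the transcript ENSMUST00000155958 at chr16:31771918-31771977, showed little of it: 0.73, 0.96 and 0.94 in knock-in against 0.92, 1.10 and 0.98 in wild type. Its difference was -0.13 (SE 0.12; limma, adjusted p = 0.659), and -0.11 with slide as a block. Slide and genotype cannot be told apart for the arrays of slide 2, which hold wild-type samples only.

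Dlg2 encodes PSD-93, the close relative of PSD-95 that also clusters potassium channels. Probe 1, at chr7:99597105-99597164, read 3.35, 3.59 and 3.53 in knock-in against 3.33, 3.49 and 3.57 in wild type. The 6 arrays spanned 0.26, the narrowest range of the 15 measured probes, and the groups overlapped. The difference was 0.03 (SE 0.12), a ratio of 1.02 with a 95% interval of 0.834 to 1.25 (limma, adjusted p = 0.931). Probe 2, at chr7:99595368-99595427, is a weak spot, with processed signals of 354, 315 and 370 in knock-in against 344, 204 and 303 in wild type. It read -1.32, -1.53 and -1.30 against -0.75, -1.51 and -1.44, so that wild-type replicate 1 alone stood high. Its difference was -0.15 (SE 0.22; limma, adjusted p = 0.778), and 0.09 without that array.

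**Figure D2:**
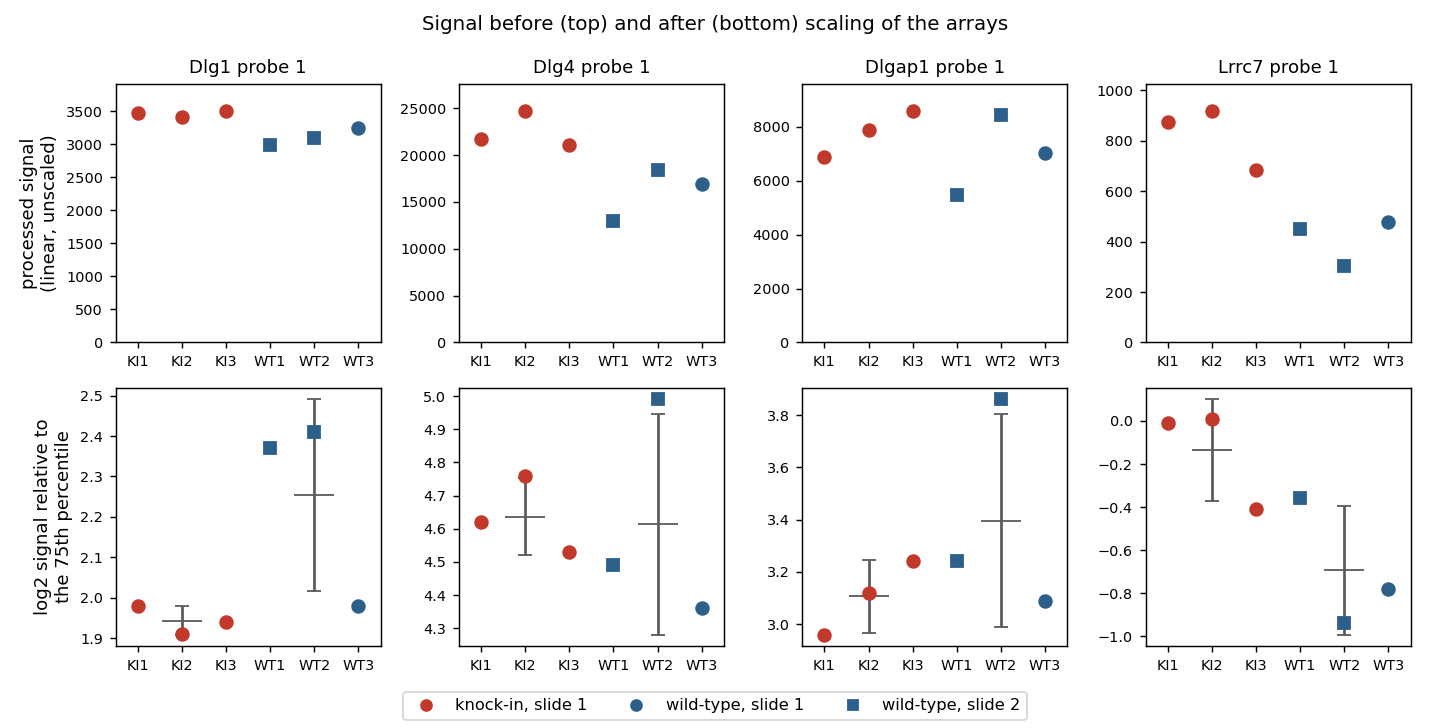
Processed signal before scaling (top row, linear, axis from 0) and relative log2 level (bottom row, log2, axis not from 0) of Dlg1, Dlg4, Dlgap1 and Lrrc7 probe 1 on each array; grey bars are group means ± SD (n = 3). Scaling turns the order of the groups for Dlg1, from 3408 to 3495 against 2990 to 3248 before it to 1.94 against 2.25 on average after it, and leaves Lrrc7 higher in knock-in.

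Among the partners of the guanylate kinase-like domain, Dlgap1 encodes GKAP, the first such protein to be described. Probe 1, at chr17:71168189-71168248, had processed signals of 6882, 7881 and 8579 in knock-in against 5475, 8442 and 7017 in wild type. The relative levels were 2.96, 3.12 and 3.24 against 3.24, 3.86 and 3.09. Wild-type replicate 2 stood above the other 5 arrays, which lay between 2.96 and 3.24. The difference of -0.29 (SE 0.22; limma, adjusted p = 0.595) was -0.06 without that array and 0.01 with slide as a block.

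Of the other Dlgap1 probes, probe 2 carries AATAAA and reads the variant NM_027712, at chr17:71165374-71165433. It read 1.07, 1.37 and 1.39 in knock-in against 1.28, 1.49 and 1.60 in wild type. The groups overlapped, and the difference was -0.18 (SE 0.14; limma, adjusted p = 0.616), and -0.32 with slide as a block. Probe 3, at chr17:71170058-71170117 near the far end of NM_177639, read 1.28, 1.48 and 1.51 against 1.30, 1.13 and 1.41. Its difference was 0.14 (SE 0.13; limma, adjusted p = 0.645), so the 3 probes of this gene did not share a sign.

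Dlgap2 (SAPAP2) was the partner gene whose knock-in arrays all lay above wild type. Probe 1, at chr8:14847595-14847654, read 1.55, 1.63 and 1.67 in knock-in against 1.54, 1.22 and 1.54 in wild type. The margin between knock-in replicate 1 and the upper wild-type arrays was about a hundredth, and wild-type replicate 2 was the low array. The difference was 0.18 (SE 0.13; limma, adjusted p = 0.580), and 0.08 without wild-type replicate 2. Probe 2, of the transcript ENSMUST00000141155, had processed signals between 4.44 and 9.82 and was not well above background on any array.

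Dlgap3 encodes SAPAP3, a scaffold best known from the striatum, where its loss in mice leads to excessive grooming. Probe 1, at chr4:126914197-126914256, had processed signals of 115785, 141341 and 148898 in knock-in against 78517, 101272 and 133797 in wild type, and no spot of any array was saturated. In relative level it read 7.03, 7.28 and 7.35 against 7.08, 7.45 and 7.35, and the groups overlapped. The difference was -0.07 (SE 0.15; limma, adjusted p = 0.848). Its sign depended on the scaling: it was 0.01 with normexp background correction, 0.05 with quantile normalization, 0.03 with cyclic loess and 0.13 in the authors' value table. Probe 2, beginning tacgcaacttctcctgtctcagaaggtcca, read 2.11, 2.32 and 2.59 in knock-in against 2.71, 2.25 and 2.52 in wild type, a difference of -0.15 (SE 0.18; limma, adjusted p = 0.718). That value was sensitive to single arrays: it was -0.04 when knock-in replicate 1 was left out, -0.05 when wild-type replicate 1 was, and -0.28 when knock-in replicate 3 was.

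Dlgap4 (SAPAP4) showed the smallest difference of the Dlgap genes. Its probe, at chr2:156588634-156588693, read 5.09, 5.24 and 5.22 in knock-in against 5.19, 5.37 and 5.14 in wild type. The difference was -0.05 (SE 0.11), equal to the median of all probes, with a 95% interval of the ratio from 0.80 to 1.17 (limma, adjusted p = 0.858). Quantile normalization and cyclic loess both gave 0.02. Striatal markers, the cells in which Dlgap3 is best known, differed widely among arrays, at 1.89, 0.45 and -0.94 in knock-in against 1.35, -1.35 and -1.39 in wild type (mean of 12 measured genes relative to the mean of the 6 arrays). Knock-in replicate 1, the highest array of that list, had the lowest value of both Dlgap3 probes, while wild-type replicate 1, the next highest, had the highest value of Dlgap3 probe 2.

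Lrrc7 encodes densin, and it gave the largest difference of the 15 probes. Probe 1, at chr3:157746672-157746731 on the minus strand, had processed signals of 876, 917 and 686 in knock-in against 450, 303 and 480 in wild type. The relative levels were -0.01, 0.01 and -0.41 against -0.36, -0.94 and -0.78. Knock-in replicate 3 lay just below wild-type replicate 1, so the groups overlapped by those arrays. The means were -0.14 ± 0.236 and -0.69 ± 0.298 (SD, n = 3 each).

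The Lrrc7 difference was 0.56 (SE 0.20), or 1.47-fold with a 95% interval of 1.06 to 2.04. It did not pass over all probes, where limma's adjusted p was 0.458 and the unadjusted p 0.0272. It was 0.64 against the wild-type array of the same slide (slide as a block, SE 0.29, adjusted p = 0.984). The unadjusted p rose to 0.0758 with slide as a block, 0.081 without knock-in replicate 1, 0.087 without knock-in replicate 2, 0.0801 with wild-type replicate 2 left out and 0.0731 with replicate 3 of that group left out. Probe 2, which begins catgactttaaacttgcagactaagtctaa, was not well above background on any array, with processed signals between 4.61 and 8.69, so the result rests on 1 probe.

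The arrays with high Lrrc7 were also those with high list means for markers of striatal neurons and of several other cell types. Single genes of a list could have another order. The upper arrays for Lrrc7 were wild-type replicate 1 and, above it, replicates 1 and 2 of the knock-in group. They were also the upper arrays for the mean of 12 measured of 14 listed striatal markers, with the values given for Dlgap3. Of these markers 10 were well above background on all 6 arrays. The same held for the mean of 5 measured of 6 choroid plexus and ependymal markers, at 0.37, 0.68 and -0.51 in knock-in against 1.08, -0.74 and -0.87 in wild type. It also held for the mean of 8 oligodendrocyte markers, at 0.17, 0.37 and -0.04 against 0.15, -0.49 and -0.16. The mean of 7 measured of 8 neuronal and synaptic transcripts was lowest on those same arrays, at -0.30, 0.02 and 0.17 in knock-in against -0.23, 0.14 and 0.20 in wild type. The upper arrays were the same, within a narrower range, for the mean of 8 astrocyte markers, at 0.03, 0.06 and -0.04 against 0.08, -0.02 and -0.10. They were also the same for the mean of 8 microglial markers, at 0.04, 0.10 and 0.00 against 0.02, -0.11 and -0.04. The mean of 6 endothelial markers had another order, at 0.25, -0.12 and -0.47 against 0.07, 0.24 and 0.04. Knock-in replicate 3 was close to wild-type replicate 1 for Lrrc7, at -0.41 against -0.36. It was far below that array for the striatal list, at -0.94 against 1.35. The part of the listed cell types in the Lrrc7 result was not tested.

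**Figure D3:**
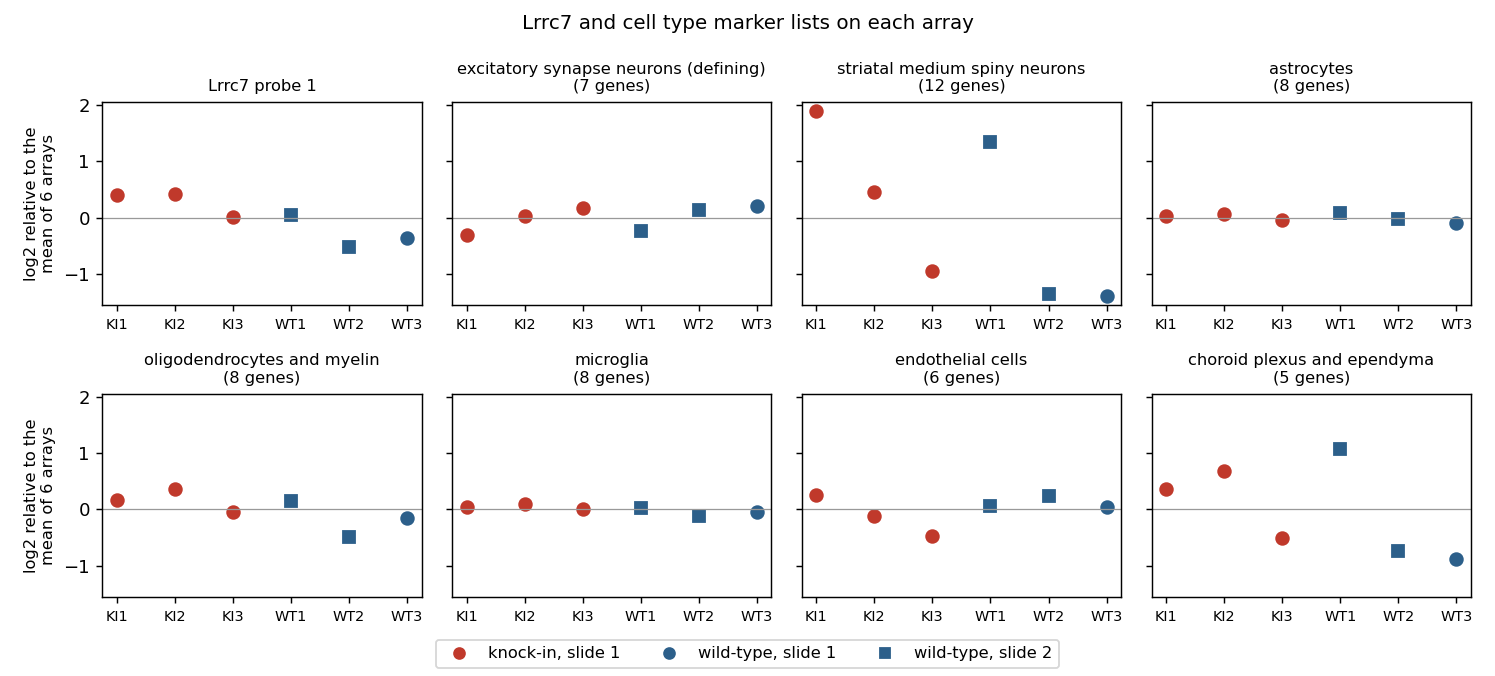
Lrrc7 probe 1 and the mean of each cell type marker list on each array, relative to the mean of the 6 arrays (y axis, log2), with knock-in in red, wild type in blue and slide 2 as squares. Striatal markers range from -1.39 in wild-type replicate 3 to 1.89 in knock-in replicate 1, and the upper arrays of that list are also the upper arrays of Lrrc7.

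Probes of 1 gene read the same RNA extract, and a shift common to all spots of an array cancels in their difference. For the 4 genes with more than 1 measured probe, the brightest probe minus the mean of the others differed between groups by -0.08 for Dlg1, 0.18 for Dlg2, -0.28 for Dlgap1 and 0.08 for Dlgap3. The exact two-sided permutation p was 0.2, 0.8, 0.5 and 0.8, each 0.8 after adjustment over the 4 genes, and 3 arrays against 3 cannot go below 0.1. Normalizations that act by signal level moved the contrasts: that of Dlgap3 was 0.17 with normexp, 0.19 with quantile normalization, 0.16 with cyclic loess and 0.28 in the authors' value table, and that of Dlgap1 was -0.21 in that table. The Dlgap1 value rested on wild-type replicate 2, where the contrast read 2.56 against 1.59 to 1.95 on the other arrays. Among the 8 single pairs of probes, 1 separated the groups, and it was singled out after its values were seen. Dlgap1 probe 2, of the variant NM_027712, minus probe 3, at the far end of NM_177639, read -0.21, -0.11 and -0.12 in knock-in against -0.02, 0.36 and 0.19 in wild type. That difference of -0.32 had an exact permutation p of 0.1, the smallest possible, and 0.8 after adjustment over the 8 pairs.

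**Figure D4:**
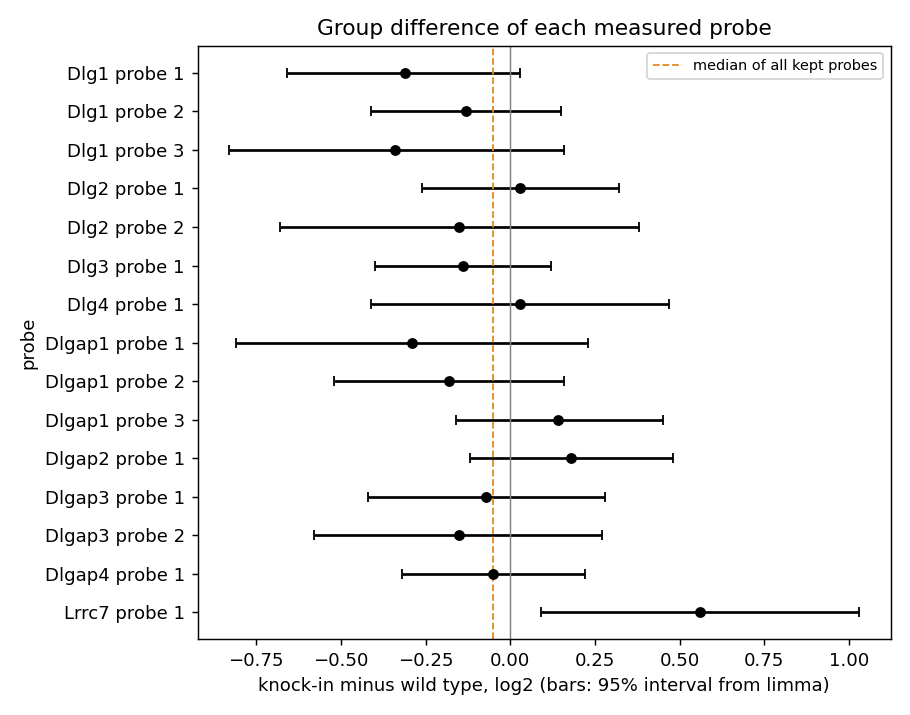
Knock-in minus wild type for each of the 15 measured probes (x axis, log2), with limma's 95% interval, a grey line at 0 and a dashed line at the median of all probes, -0.05. Only the interval of Lrrc7, 0.09 to 1.03, leaves out 0, before any adjustment.

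Wild-type replicate 2 stood apart most often. It was the array farthest from the mean of the other 5 for 8 of the 15 scaffold probes, as it was for 43.0% of all probes, being high for Dlg1 probe 1, Dlg3, Dlg4, Dlgap4 and Dlgap1 probe 1 and low for Dlgap2, Lrrc7 and Dlgap1 probe 3. The SD was larger in wild type than in knock-in for 11 of 15 probes (73.3%), as for 72.0% of all probes. Knock-in arrays shared 1 slide, and wild-type arrays were spread over both.

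The genes around the scaffold were read from 4 lists, each gene by its brightest measured probe, and 0 of their genes passed limma's adjusted p of 0.05, where 0.00953% of 20996 genes passed. At an unadjusted p under 0.05 the backgrounds were 4.46% higher and 6.40% lower, and 20.3% of genes had groups that did not overlap. The lists were chosen for their links to PSD-95 and describe the neighbourhood only.

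Of 22 scaffold partners below PSD-95, 17 had a difference below 0 (59.1% over all genes) and the median was -0.08; 2 were lower at an unadjusted p under 0.05 and 0 higher. Those were Homer1, the adaptor that links Shank to metabotropic receptors, at -0.44 (SE 0.16; limma, adjusted p = 0.433), and Sipa1l1, a Rap GTPase-activating protein bound to PSD-95, at -0.26 (SE 0.11; adjusted p = 0.459). For Homer1 1 of its 5 probes was above 0. Homer2 was at 0.54 (SE 0.25; adjusted p = 0.482). Shank1 and Shank3, the scaffolds that bind Dlgap proteins, were at 0.03 (SE 0.27) and 0.04 (SE 0.14), and Camk2a, the kinase that binds densin, at -0.15 (SE 0.25).

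Of 22 membrane partners of the PDZ domains, 14 were below 0 and the median was -0.11, with 1 lower and 0 higher at an unadjusted p under 0.05. That gene was Atp2b4, a calcium pump, at -0.48 (SE 0.18; limma, adjusted p = 0.444), with all 3 of its probes below 0. The kainate receptor gene Grik2 was at -0.38 (SE 0.17). The NMDA receptor genes Grin2a, Grin2b and Grin1 were at -0.57 (SE 0.27), -0.18 (SE 0.14) and -0.16 (SE 0.20). Grin2a, like Dlgap1 probe 1, was highest in wild-type replicate 2, at 2.58 against 1.26 to 1.74 on the other arrays.

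Of 19 other guanylate kinase-type and LAP scaffold genes, 7 were below 0, the median was 0.03, and 0 passed even the unadjusted p of 0.05 in either direction. Lrrc1, a relative of densin, was at 0.62 (SE 0.29; limma, adjusted p = 0.482). On the 6 arrays it read -0.05, 0.07 and -0.69 in knock-in against -0.33, -1.16 and -1.04 in wild type, with the same upper arrays as Lrrc7. Magi3 was at -0.37 (SE 0.18).

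Of 13 genes of PSD-95 palmitoylation, phosphorylation and turnover, 7 were below 0 and the median was -0.01, with 2 higher and 1 lower at an unadjusted p under 0.05. Ube3a, the ubiquitin ligase of Angelman syndrome, was at 0.39 (SE 0.13; limma, adjusted p = 0.433). Cdk5, a kinase that phosphorylates PSD-95, was at -0.25 (SE 0.11; adjusted p = 0.459).

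The genes whose pattern over the 6 arrays was most like that of Dlg4 were Stambpl1, Metrn and Hebp1, with root-mean-square distances of 0.037, 0.040 and 0.047 in log2 after each gene was centred on its own mean; a flat profile would lie at 0.204. All 3 were highest in wild-type replicate 2 and lowest in wild-type replicate 3, as was Dlg4. With 20996 genes and 6 arrays, near matches of this kind are many: Dlgap4, the closest other scaffold gene, lay at 0.146 and ranked 1263 by distance.

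**Figure D5:**
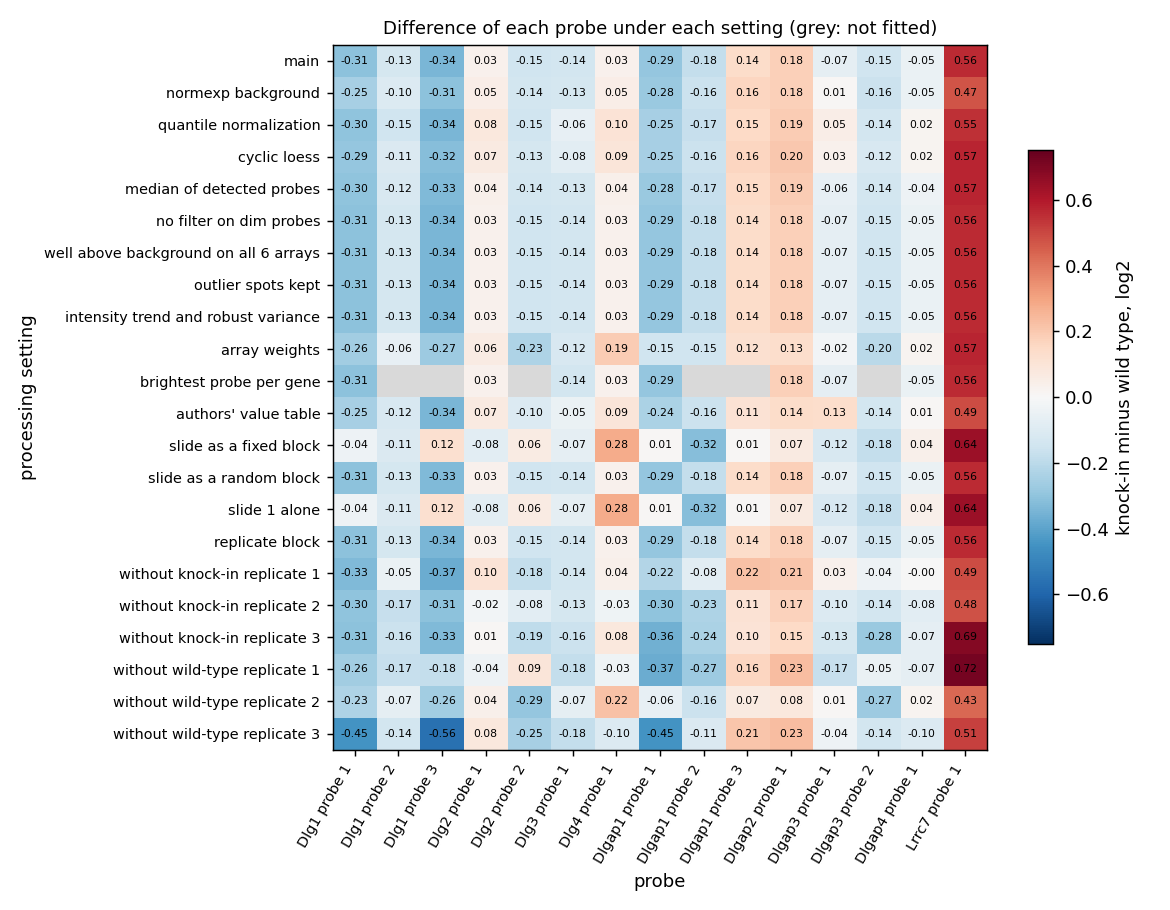
Knock-in minus wild type (colour and printed value, log2) of each measured probe (columns) under the main processing and 21 alternatives (rows); grey cells were not fitted. Lrrc7 stays between 0.43 and 0.72 throughout, whereas Dlg1 probe 1 moves from -0.31 to -0.04 with slide as a block.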

How the data were processed

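RNA of 6 synaptosome samples, 3 knock-in and 3 wild type, was read on 1 array each. Per the file headers, the deposited processed intensity came from Feature Extraction (Agilent, 10.7.3.1), with spatial and multiplicative detrending switched on and local background subtraction off, and with no normalization between arrays; the array annotation uses build mm9. The authors' deposited value table is in log2 units; each column ranked as the raw median intensity of its array (Spearman 1.0000) and had a median of 6.55 or 6.56, and the sources used here do not give its normalization.

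Processed intensities were taken to log2, and the 75th percentile over the 59305 non-control spots was subtracted within each array. Spots of a probe were averaged, leaving out outlier flags unless no spot remained. Probes well above background on at least 3 arrays (29318) were fitted with limma 3.58.1 in R 4.3.3 (lmFit, eBayes, two-sided). Arrays correlated between 0.979 and 0.993 across probes, which are not independent replicates; their number limits the precision. The code was tested on simulated data.

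All 9 symbols matched RefSeq (GRCm38.p6), which was used for names only. All scaffold probes were named by rule, and of each gene list up to 3 genes of smallest p plus fixed genes (Shank1, Shank3, Homer1, Camk2a, Grin1, Grin2a, Grin2b). For Dlg4 the 3 genes of nearest pattern were named. Some genes that the rule names are not reported here. Members and lists were chosen with earlier results of these data known. A list is described by counts and its median, with no set test. Each alternative changed 1 step, except that trend and robust variance were changed together and the authors' value table replaced background correction and scaling alike.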

Additional observations from a re-analysis of the deposited data

How the results depend on the processing

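Of 309 values of scaffold probes under 21 alternatives, 0 passed the adjusted threshold and 27 changed sign. The 309 include alternatives that left every scaffold difference as it was and could not change a sign. These were the choices of probes to fit, outlier spots kept, trend and robust variance, and the replicate block. Of the 15 probes, 8 kept their sign throughout, Lrrc7, Dlg3 and Dlg1 probes 1 and 2 among them. No scaffold probe and no gene of the 4 lists passed under any alternative. Slide as a fixed block, and slide 1 alone, compare knock-in with wild-type replicate 3 only. Both gave 0.12 for Dlg1 probe 3, -0.08 for Dlg2 probe 1, 0.06 for Dlg2 probe 2, 0.01 for Dlgap1 probe 1 and 0.04 for Dlgap4. The within-gene contrast turned to -0.14 for Dlg2 and 0.17 for Dlgap1 under both. Dlgap3 probe 1 turned to 0.01 with normexp, 0.05 with quantile normalization, 0.03 with cyclic loess and 0.13 with the authors' value table. Dlgap4 turned to 0.02 with quantile normalization, cyclic loess and array weights, and to 0.01 with the authors' value table. Leaving out 1 array moved Dlg2 probe 1 between -0.04 and 0.10, Dlg2 probe 2 between -0.29 and 0.09, Dlg4 between -0.10 and 0.22, Dlgap3 probe 1 between -0.17 and 0.03 and Dlgap4 between -0.10 and 0.02. It moved the contrast of Dlg2 between -0.13 and 0.33 and that of Dlgap3 between -0.13 and 0.28, negative in both cases without wild-type replicate 1. The cause was not tested.

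Of all probes 2 passed. That count was 1 with normexp, 0 with no filter or with probes above background on all 6 arrays, 0 with the authors' value table, 10 with slide as a fixed block, 4 on slide 1 alone and between 0 and 5 on leaving out 1 array, 0 without wild-type replicate 1 or 2. Slide as a random block had a correlation of 0.02 and was not run for the within-gene contrasts. Replicate numbers are shared by the groups, but no label says that they pair the samples. Deviations of same-numbered arrays from their group means correlated at 0.36, -0.04 and 0.22, and not every array correlated best with its own number. Deviations within groups of 3 are tied to each other, so these values cannot decide whether the samples were paired. With a replicate block, 0 scaffold probes and 0 of all probes passed, and Lrrc7 was at 0.56 (adjusted p = 0.470).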
